A study of Drosophila melanogaster with 10 samples.

Results

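The nascent transcription of mock-treated ML-DmBG3-c2 cells was described across all genes of the deposited table. The values were the authors' mean signal per gene over the mock libraries, which covered 7624 genes, every gene of that table. The mock group held 3 of the 10 nascent RNA libraries of the series, and the others came from cells treated with RNA interference (RNAi) against the Polycomb proteins Ph (3 libraries) and Sce (4 libraries). The mock cells carry the label of a mock RNAi treatment and no genetic change is given. They are a cultured line grown in Schneider's medium with fetal calf serum and insulin. The labels' RNAi protocol passes cells through a low-serum medium before double-stranded RNA is added, and whether the mock wells went through the same steps is not stated. The labels number the mock replicates and do not say whether they were separate cultures. The table gives their mean alone, so no value below has an error and no test was possible.

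ML-DmBG3-c2, or BG3, is a cell line of Drosophila that was started from nervous tissue of larvae. Nascent RNA is RNA still being made by RNA polymerase on the chromatin, so it covers introns as well as exons and reports on the act of transcription more directly than on the store of finished mRNA. In these libraries, per the labels' protocols, RNA came from a chromatin pellet, RNA without a cap was degraded, polyadenylated RNA was drawn off with oligo(dT) beads, and the native 3' end of each transcript was kept. Long genes hold more polymerase at once than short genes at the same rate of initiation, so a sum over a gene and a density along it rank genes differently.

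The deposited signal rose with the length of the gene. Across 7498 genes matched to a gene model of the BDGP6.54 annotation, Spearman's rho between signal and gene span was 0.63, and after division by span it was 0.086. Genes are not independent replicates and these correlations are descriptions. Levels of different genes are therefore compared below as signal per kb of gene span, written as a multiple of the median gene (1566 signal units per kb), and simply called the level. The deposited signal itself is called the signal. The other 126 genes had no matched model and have a signal but no level. A gene counts as high where its level was in the highest 10% (at least 3.85 times the median gene) and as low in the lowest 10% (at most 0.161 times), which by construction took 10.0% of genes each. Every count of high or low list members below is to be read against that share. A count given by signal uses the highest 10% of signals (9.99% of all genes), and one per kb of exons divides by exon length in place of span. The lists were chosen with results of these data known, so their counts are descriptions. The span comes from the current annotation, which need not be the one the authors used.

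Transcription was spread very unevenly over the genes. The signal ran from 0.80 to 4273300.2 units with a median of 4447. The single highest gene held 2.23% of the summed signal, the 10 highest held 10.2%, the 100 highest 36.6% and the 1000 highest 78.0%. No more than 212 genes, or 2.78% of the table, were needed to reach 50% of the signal, while the 3812 genes of lowest signal together held 3.45%. The gene at the 90th percentile had 81.6 times the signal of the gene at the 10th percentile. Per kb the same ratio was 24.

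**Figure D1:**
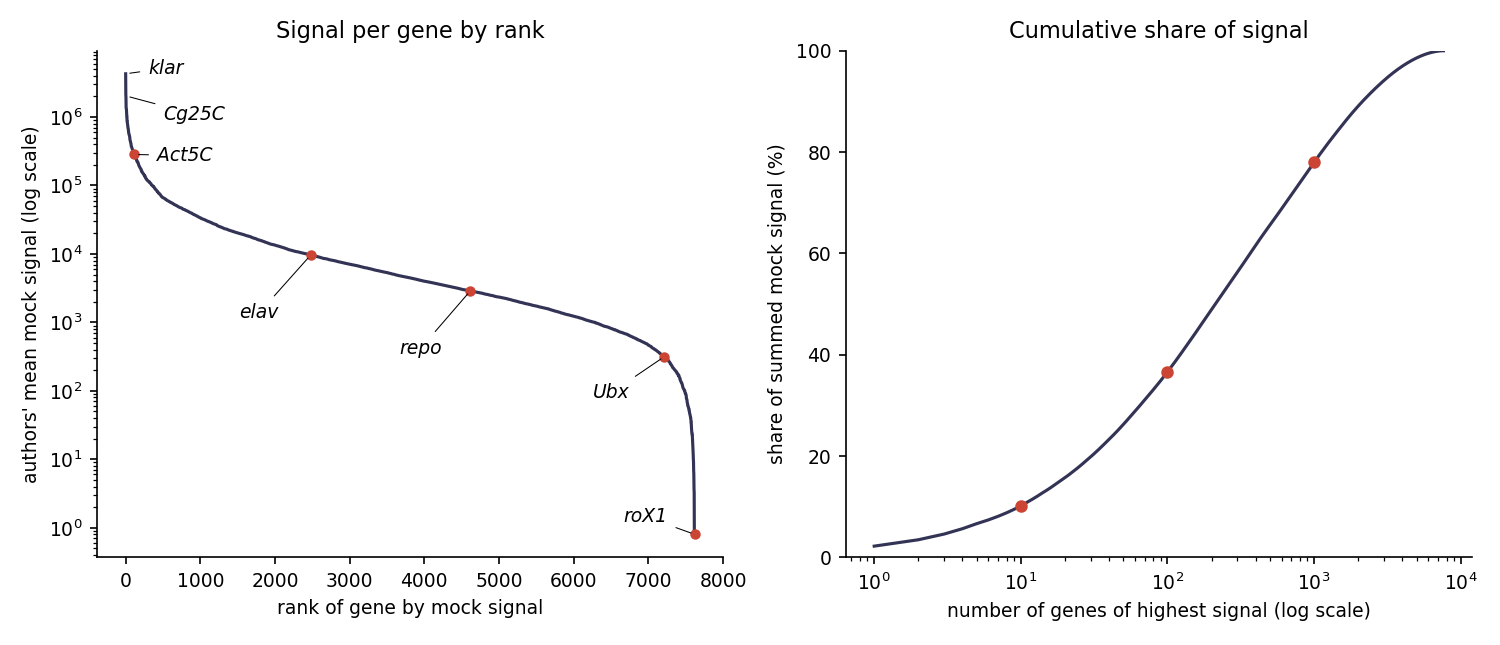
The left panel plots the authors' mean mock signal (log scale) of each of the 7624 genes against its rank, with klar, Cg25C, Act5C, elav, repo, Ubx and roX1 marked. The right panel plots the share of the summed signal (%) held by the genes of highest signal (log scale); red points mark 10, 100 and 1000 genes at 10.2%, 36.6% and 78.0%.

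Ranked by signal, the head of the list held very long genes of cell shape, adhesion and nervous system wiring, together with basement membrane genes. The first was klar, which encodes a KASH-domain protein that links nuclei and organelles to microtubule motors, with a signal of 4273300.2. Then came Ten-m, a teneurin cell surface protein used in synaptic partner matching (2418758), and pum, the Pumilio translational repressor (2159682). The fourth was Cg25C (Col4a1), a type IV collagen chain of the basement membrane, at 2029895, followed by hdc (the headcase gene) at 1899249 and by the second type IV collagen chain gene, vkg, at 1415309.6. The median span of the 25 genes of highest signal was 75 kb against 2.79 kb for all genes, and 17 of the 25 were longer than 50 kb. Much shorter genes reached this group as well. The overlapping genes nop5 and x16 span 1.99 and 5.91 kb, with signals of 1315766 and 1332653, and CG13900 spans 6.67 kb (799310). Cg25C spans 7.67 kb and the fatty acid synthase gene CG3523 (FASN1) spans 11.6 kb with a signal of 1218172. Of these only nop5 is shorter than the median span of all genes.

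Others among the 25 were genes of the neural guidance and adhesion class: Fili (1311607), Ten-a (1175956), sli (1020769.9), which encodes the Slit ligand of Robo receptors, and CadN (863517), the neural cadherin. Basement membrane genes added trol (1299742), the perlecan gene, and LanA (1168788), the laminin alpha chain gene. Regulators among the 25 were hth (867613), a homeodomain partner of Hox proteins, ush (864812), a cofactor of GATA factors, luna (993353), a zinc finger factor, and br (823595), an ecdysone-induced zinc finger factor. The remainder included sick (1375039.9), LRP1 (1022042), a lipoprotein receptor relative, Eip63E (1027007), a cyclin-dependent kinase, rhea (866047), the talin that ties integrins to actin, and Parp (819772), the poly(ADP-ribose) polymerase. The gene model of br lies wholly inside that of another gene on the opposite strand and 53.2% of Ten-m is covered by other models. No source says whether the table kept strands apart, so signal of overlapping genes cannot be told apart.

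Per kb the order changed, and short genes of protein synthesis came forward. Only 7 genes stood in both sets of 25 and 20 in both sets of 100. Ribosomal protein genes made up 30 of the 100 highest levels and 1 of the 100 highest signals. The highest level was that of nop5, a snoRNP core protein gene, at 422 times the median gene. It lies inside the splicing factor gene x16 on the same strand, x16 stood at 144 times, and the signal of the pair cannot be told apart. RpL15, a protein of the large ribosomal subunit, stood at 181 times, and Cg25C at 169 times. The translation elongation factor gene Ef2b (eEF2) stood at 104 times, the tubulin gene alphaTub84B at 71.2 times, the fatty acid synthase gene CG3523 at 67.2 times, and Arc1, a gene related to retrotransposon Gag proteins, at 49.1 times. LanB1, LanA and vkg stood at 54.0, 52.6 and 56.3 times the median gene. The 3 genes Cg25C, vkg and LanA were among the 25 highest on both scales. Npc2a, a sterol-binding protein gene, closed the 25 at 40.7 times.

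Several of the highest levels belong to very short models inside other genes. Among the 25 highest levels, 5 had a span under 500 bases, 5 were not protein coding and 8 were overlapped over 50% or more of their span. CR43708, a small nuclear RNA inside FASN2, stood at 179 times the median gene, CR34335 inside DIP-alpha at 157 times and mir-4951 inside the heat shock RNA gene Hsromega at 106 times. RNaseMRP:RNA, the RNA of an RNA-processing enzyme, stood at 83.1 times. CG32320, which lies within Ptp61F on the other strand, stood at 72.0 times and CG13900 (Sf3b3), with 9 snoRNA models inside, at 76.6 times. For the models nested in another gene the signal may count the host gene, and its share was not tested. CG13900 is itself a host, overlapped over 59.8% of its span, and whether its signal counts the snoRNAs was not tested. In the table as a whole 855 genes (11.4%) were overlapped over 50% or more of their span.

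**Figure D2:**
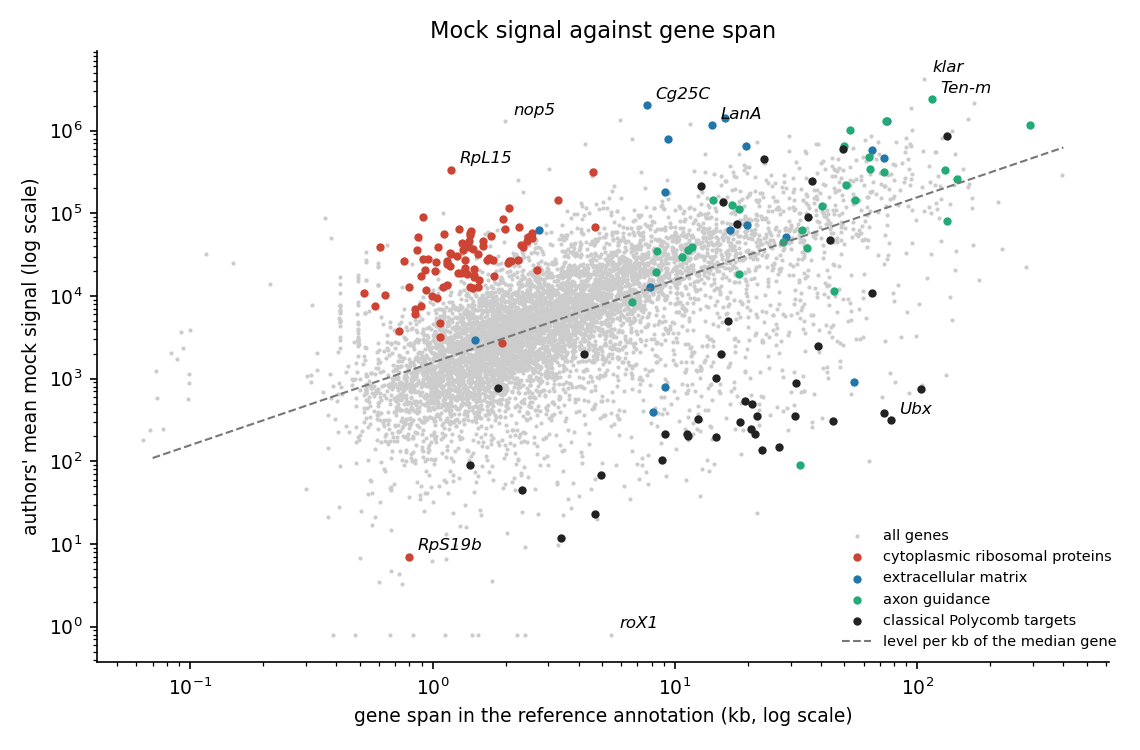
Each point is a gene, plotted by its span in the annotation (kb, log scale) and its mean mock signal (log scale); the dashed line is the level per kb of the median gene. Genes of the cytoplasmic ribosomal protein list (red) lie above the line except RpL7-like and RpS19b. Extracellular matrix genes (blue) include Cg25C at 169 times the line. Axon guidance genes (green) are long, and most classical Polycomb targets (black) lie below the line.

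The genes of the cytoplasmic ribosome stood high almost without exception. Of 94 genes in the list, 86 had a row and 85 a level, the median level was 12.4 times the median gene, 80 were high against the 10.0% of all genes, and 1 was low. Proteins of both subunits and of the stalk led: after RpL15 came RpLP1 at 64.0 times (signal 91455), RpL5 at 43.7 times (315134) and RpLP2 at 41.5 times (39251). In small subunit genes RpS18 stood at 37.7 times and RpS2 at 32.5 times. By signal 22 of the 86 were in the highest 10% (9.99% of all genes), since these genes are short, with a median span of 1361 bases. The mitochondrial ribosome differed: all 73 genes had a row, none was high, the median level was 0.80 times the median gene, and the levels ran from 0.160 (mRpS6) to 2.46 (mRpL44).

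Some ribosomal protein genes that exist as copies were transcribed unequally. RpS19a stood at 10.4 times the median gene and RpS19b at 0.0056 times, with signals of 22023 and 7.02. Among genes named as like a ribosomal protein gene, RpL7-like stood 23.1-fold below RpL7 on the level scale. RpLP0-like stood 9.79-fold below RpLP0 and RpL24-like 6.04-fold below RpL24. These genes are counted in the list above. They are relatives by name and need not be copies or encode parts of the ribosome. The gene model of RpL7-like is overlapped over 98.9% of its span. Other pairs were close: RpL34b stood 1.23-fold above RpL34a and RpS14a 1.48-fold above RpS14b. With no error on the means, such small ratios cannot be called differences. No row was present for RpS5b, RpS28a, RpS10a, RpL10Aa or RpL22-like, whereas RpS5a, RpS28b, RpS10b, RpL10Ab and RpL22 stood between 5.89 and 14.4 times the median gene. These genes were picked after their values were seen, and reads shared by near-identical copies make their values uncertain.

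Genes for translation factors, protein folding and protein breakdown had medians above the median gene. Of 44 translation factor genes with a level, 20 were high (11 by signal), the median was 3.31 times the median gene, and Ef1alpha48D (46.5 times), eIF-5A (22.5 times) and Ef1gamma (21.3 times) followed Ef2b. The paralog Ef1alpha100E was 272-fold below Ef1alpha48D, at 0.171 times the median gene. Among the aminoacyl-tRNA synthetases 4 of 32 were high (12.5%, 1 by signal), led by Aats-thr at 13.4 times, with a median of 2.20 times. Proteasome genes had a median of 3.28 times, 15 of 35 were high and none was low. That count was 3 per kb of exons and 0 by signal, with median percentiles of 77.2 and 60.1 against 87.3 by level. Pros28.1, a core particle alpha subunit, led at 15.5 times, and its lowest member was Mov34 at 0.563 times.

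Of 15 chaperonin and constitutive chaperone genes, 14 were high, with a narrow range from 3.83 times (Hsc70Cb) to 21.1 times (Hsp83, the fly HSP90) and a median of 9.42 times. Hsp60 of the mitochondrion stood at 16.5 times and Hsc70-3, the chaperone of the endoplasmic reticulum, at 12.1 times. Of the heat-inducible genes 9 of 12 were high by level, 5 per kb of exons and 1 by signal. Hsp23 stood at 34 times and Hsp26 at 12.6 times, while the Hsp70 copies, which share most of their sequence, ran from 4.37 times (Hsp70Ba) to 10.8 times (Hsp70Aa). Hsp67Ba was at 0.488 times. Each gene has a single value, so signal near the start of these genes and signal along their length cannot be told apart.

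Genes of energy and RNA metabolism had list medians between 1.25 and 3.46 times. The glycolytic genes had a median of 3.10 times the median gene with 6 of 12 high (2 by signal), led by the GAPDH genes Gapdh2 (12.1 times) and Gapdh1 (8.63 times) and by PyK, pyruvate kinase (6.91 times), and lowest for ImpL3, lactate dehydrogenase (1.31 times). Vacuolar ATPase genes had rows for 18 of 34 members and a median of 3.46 times, with 8 high (2 by signal) and Vha36-1 and Vha16-1 each at 7.5 times. Genes for the respiratory chain were nearer to the median gene, at 1.44 times, with 8 of 66 high (2 by signal). The splicing factor genes had a median of 3.14 times and 7 of 19 high, among them SC35 at 19.0 times and Prp8 at 8.88 times. RNA polymerase II subunits had a median of 1.56 times with 2 of 11 high (18.2%, none per kb of exons). The largest, RpII215, stood at 6.35 times and RpII140, next in size, at 4.47 times, against 0.33 times for Rpb12. Pausing and elongation factors lay near the median gene at 1.25 times with 4 of 21 high (19.0%), led by dre4, a histone chaperone subunit, at 8.85 times. Cell cycle and replication genes sat above the median gene in 32 of 35 cases, with a median of 2.06 times. Of the 35, 2 (5.71%) were high: Mcm6 at 6.15 times, a replicative helicase subunit, and RnrL at 5.51 times, a ribonucleotide reductase subunit.

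The replication-dependent histone genes, which lie in a tandem array on chromosome arm 2L, had rows for 96 of 111 copies and a median of 3.63 times the median gene, with 44 high. Per kb of exons 28 were high and by signal none, these genes being short. The subtypes differed. The median was 8.11 times for His4 copies (20 of 22 high), 4.39 times for His2A (13 of 20), 2.89 times for His2B (6 of 13), 0.96 times for His3 (5 of 18) and 0.42 times for His1 (0 of 23). Single copies ran from 0.066 times (His1:CG33858) to 41.1 times (His3:CG31613). The copies are nearly identical within a subtype, so the division of reads between them is uncertain. Histone mRNA ends in a stem-loop in place of a poly(A) tail and is not drawn off by oligo(dT), so nascent and finished histone RNA cannot be told apart in these values.

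Related cytoskeleton genes differed widely in level. Act5C and Act42A, the general cytoplasmic actins, stood at 39.9 and 19.3 times the median gene. The muscle actins were unequal, with Act79B at 2.35 times and Act87E and Act88F at 0.136 and 0.027 times. Act57B, another muscle actin, was listed at the lowest value of the column, a signal of 0.80. In the tubulins alphaTub84B was 15.9-fold above alphaTub84D, betaTub56D stood at 17.5 times and betaTub60D at 8.48 times, while betaTub97EF stood at 0.102 times. No row was present for alphaTub67C, alphaTub85E or betaTub85D. Of the 21 cytoskeleton genes with a level, 12 were high and 4 low. Among the high ones were tsr (8.72 times), the cofilin gene, and chic (8.30 times), the profilin gene, both of which act on actin turnover.

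The 18 extracellular matrix genes with a level held 4.62% of all signal, and the median level was 4.89 times the median gene, with 10 high and 3 low. Behind Cg25C and vkg, the 2 chains of type IV collagen, stood LanB1 and LanA, then Ppn (papilin) at 21.3 times, BM-40-SPARC, a collagen-binding protein gene, at 14.5 times, LanB2 at 12.9 times and trol at 11.1 times. All 3 laminin chains of one trimer were thus high, and the other laminin alpha chain, wb, was 9.29-fold below LanA at 5.66 times. The genes of enzymes acting on collagen were lower: PH4alphaEFB, a prolyl hydroxylase, stood at 2.31 times and Plod, a lysyl hydroxylase, at 1.04 times. The low members were mp, a multiplexin collagen, at 0.011 times, Tig, tiggrin, at 0.031 times, and Timp at 0.055 times, which lies wholly within another gene model.

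Cell attachment genes were mixed. Of 25 integrin and adhesion genes, 6 were high (11 by signal) and 4 low. The talin gene rhea stood at 18.8 times, arm (beta-catenin) at 17.7 times, rst at 12.1 times (its model lies within kirre) and Vinc (vinculin) at 6.03 times. The integrin beta gene mys stood at 3.64 times. The integrin alpha genes were unequal, with scb at 2.55 times, if at 0.240 times and mew at 0.061 times. The lowest of the group was Fas3, a homophilic adhesion protein, at 0.025 times. Genes of the septate junction, the barrier seal of fly epithelia and glia, had a median of 1.84 times, 6 of 19 high and none low, with l(2)gl at 6.5 times and Nrx-IV at 4.89 times.

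Axon guidance genes gave 5.02% of the signal from 29 genes with a row out of 44 listed. By level 8 were high and by signal 18 were in the highest 10%, and the list had a median span of 40368 bases. The highest levels were those of Ten-m at 13.5 times the median gene, sli at 12.4 times, Fili at 11.3 times and NetA, a netrin, at 8.34 times. NetB stood at 4.89 times, 1.71-fold below NetA. The Slit receptor gene robo stood at 2.63 times, and the netrin receptor genes unc-5 and fra at 1.03 and 0.694 times. Sema-2b, a semaphorin ligand, stood at 0.161 times and beat-IIb at 0.0018 times with a signal of 91.4.

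Markers of neural cell types were checked against the label of a nervous system line. Of 23 neuronal markers 8 had a row, with a median level of 0.53 times the median gene. Of the 8, 12.5% (1) were high and 25% (2) low, against 10.0% of all genes, and the median percentile was 28.5 by level and 65.9 by undivided signal. The high one was CadN at 4.2 times. The pan-neuronal RNA-binding protein gene elav stood at 0.438 times with a signal of 9594 and is overlapped over 98.6% of its span. Syx1A and Csp, genes of synaptic vesicle release, stood at 0.758 and 0.831 times, cac, a calcium channel, at 0.614 times, Nrg, neuroglian, at 0.210 times, futsch, a microtubule-binding protein of axons, at 0.045 times and Rbp9 at 0.019 times. The defining neuronal genes nSyb, Syt1, brp, para, VGlut, ChAT and Gad1 had no row.

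Of 18 glial markers 13 had a row, with a median of 0.54 times, 2 high (15.4%) and 3 low (23.1%). Their median percentile was 29.3 by level, 48.3 per kb of exons and 61.2 by signal. The glial master regulator repo stood at 0.541 times with a signal of 2889.8. The high ones were pnt, an ETS factor with wide use, at 5.0 times, and moody, a receptor of the blood-brain barrier, at 4.59 times, whose model is wholly overlapped. Below them lay loco at 1.45 times, Gli at 0.882, nrv2 at 0.653, Indy at 0.540, Tret1-1 at 0.512, wrapper at 0.222, hoe1 at 0.173, Eaat1, a glutamate transporter, at 0.122, Gs2 at 0.048 and axo at 0.033. Of 20 neural stem cell markers 11 had a row, with a median of 0.23 times, 1 high (pnt, 9.09%) and 5 low (45.5%). By signal 4 were in the highest 10%, and the median percentile was 13.4 by level, 11.5 per kb of exons and 70.3 by signal. Sox100B and brat stood at 2.80 and 2.58 times with l(3)neo38 just below them, insc at 0.936 and mira, which carries fate determinants, at 0.231 times. The low ones were pros at 0.088 times, klu at 0.024, SoxN at 0.0061, nub at 0.0052 and btd at 0.0022.

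Markers of other lineages were set beside these. Of 17 blood cell markers 11 had a row, with a median of 2.61 times, 5 high and 3 low. The high ones were the matrix genes Cg25C, vkg and Ppn with ush at 8.58 times and the ferritin chain gene Fer1HCH at 5.10 times, which other tissues also express. The GATA factor srp, central to blood and fat body, stood at 2.61 times and crq, a scavenger receptor, at 2.10 times, and Pxn at 1.16 times. The 3 low members were eater, a phagocytosis receptor, at 0.038 times, Hml, hemolectin, at 0.012 and lz, a transcription factor of the crystal cell lineage, at 0.0080 times. Fat body markers had rows for 6 of 16 and a median of 2.23 times, with 1 high (16.7%) and none low. They ran from Adh at 0.198 to CG31150 (cv-d) at 4.81 times, with Mtp at 2.45, bmm at 2.01 and CG11055 (Hsl) at 1.75. CG31150, the 1 high member, was listed as the gene Apoltp, but its model is named cv-d. Its place among the fat body markers is therefore doubtful, and the median includes it.

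Muscle markers had rows for 7 of 19 and a median of 0.93 times, with 1 high (14.3%) and 2 low (28.6%). Their median percentile was 46.9 by level, 74.3 per kb of exons and 95.6 by signal, where 5 of the 7 were in the highest 10%. Zasp52, a PDZ and LIM domain protein of muscle Z-discs and adhesion sites, stood at 7.22 times, Mef2 at 2.85, sls at 2.42, how at 0.928 and Msp-300 at 0.643 times. The mesoderm regulator twi had a signal of 101 and Act57B was at the lowest value. Epithelial and tracheal markers had rows for 10 of 15 and a median of 0.30 times, none high and 4 low (40%). Their median percentile was 17.1 by level, 55 per kb of exons and 63.1 by signal. The E-cadherin gene shg led at 2.45 times, with mmy at 1.26, Cht2 at 1.05, baz at 0.652, sdt at 0.405, tyn at 0.198, trh at 0.111, crb, the apical determinant, at 0.060, Fas3 at 0.025 and vvl at 0.0027 times. Germ line markers had rows for 7 of 14 and a median of 0.54 times, with 1 high and 1 low (14.3% each). The members were tud at 4.58 times, krimp at 1.86, spn-E at 1.36, aub at 0.542, osk at 0.359, bam at 0.178 and ovo at 0.018. In bulk RNA a small share of cells with a gene and a low level in every cell cannot be told apart.

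**Figure D3:**
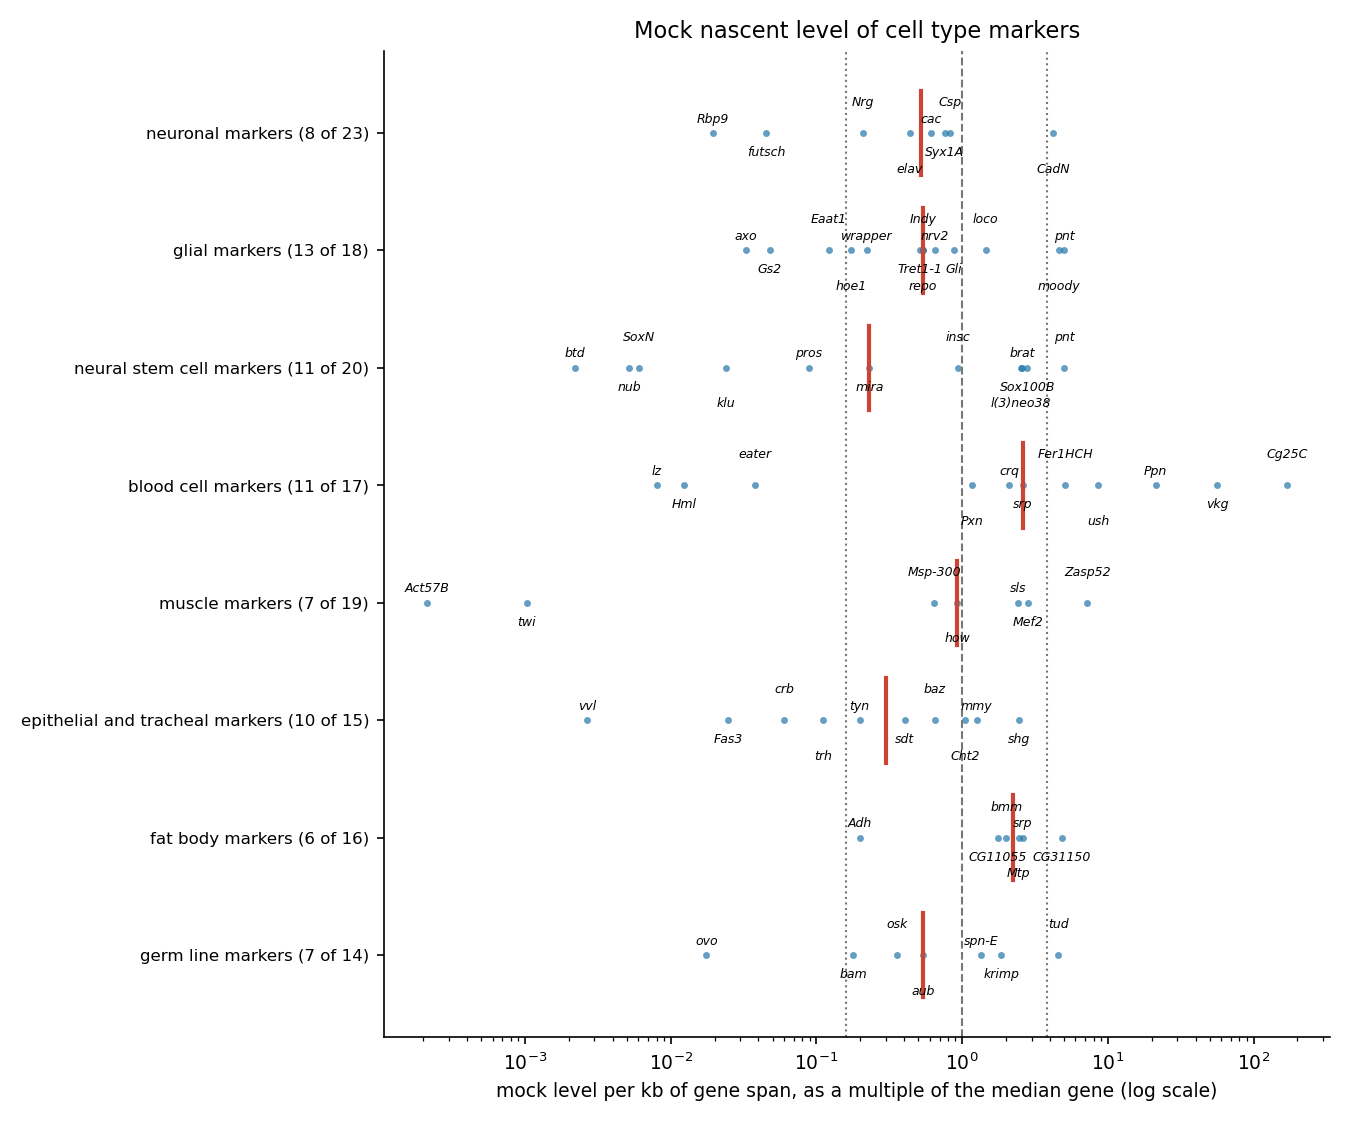
Each point is a marker gene, plotted by its mock level per kb as a multiple of the median gene (log scale), in 1 row per cell type with the number of members shown; red bars are medians, the dashed line is the median gene and the dotted lines bound the highest and lowest 10%. Blood cell markers reach from lz at 0.0080 to Cg25C at 169, and neuronal markers from Rbp9 at 0.019 to CadN at 4.2.

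The Polycomb genes themselves were transcribed at middle levels. The 7 genes of Polycomb repressive complex 1, which keeps developmental genes silent, had a median of 0.99 times the median gene and none was high or low. Su(z)2 stood at 2.25 times, Psc at 1.79, Scm at 1.07, Sce at 0.989, ph-p at 0.981, ph-d at 0.906 and Pc at 0.345. The signals were 18685 for ph-p and 10729 for ph-d, neighbouring copies that both encode Ph, 2475 for Sce and 6427 for Pc. The 14 genes of the second complex and of Polycomb recruiters had a median of 1.66 times, led by psq at 5.22 times, with the methyltransferase gene E(z) at 1.07 and Spps lowest at 0.398 times. Trithorax group and remodeler genes stood higher at a median of 2.34 times, with 18 of 19 above the median gene and 4 high (11 by signal). Insulator and architectural protein genes had a median of 1.18 times with none of 10 high. Among the trithorax and remodeler genes the high ones were Mi-2 at 6.69 times (75% overlapped), kis at 6.52, osa at 5.62 and dom at 4.75.

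The classical targets of Polycomb silencing were mostly low, with a few high exceptions. Of 74 target genes 41 had a row, and 29 of the 41 were low against the 10.0% of all genes, with a median level of 0.015 times the median gene. The Hox genes Ubx, abd-A, Abd-B, Scr and Antp, which set segment identity, all stood between 0.0026 and 0.0046 times, with signals of 316 for Ubx, 138 for abd-A, 309.7 for Abd-B, 149 for Scr and 743 for Antp. Others at the bottom were btd at 0.0022 times and unpg at 0.0031 times. The wingless ligand gene wg stood at 0.015 times. The exceptions were 6 high members, 14.6% of the 41 against 10.0% of all genes. They were zfh1 at 12.3 times (signal 449673), C15 at 10.5 (211396), Lim1 at 7.68 (592137), pnr at 5.56 (136748), bab2 at 4.27 (246195) and hth at 4.2. All 6 encode transcription factors, as do the Hox genes among the low members. Within neighbouring pairs of related genes, bab2 was 40.0-fold above bab1 (0.107 times), and inv was 5.56-fold above en (0.298 times). The low signals of long genes rest on little signal per base, and 33 members of the list had no row.

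Signalling pathways varied from member to member. The Notch list had a median of 1.88 times the median gene with 2 of 20 high (10%). The Wnt and Hedgehog list had 1.56 times with 5 of 27 (18.5%), and the TGF-beta list 1.07 times with 1 of 17 (5.88%). Against the 10.0% of all genes, the Notch and TGF-beta counts show no excess of high genes. By signal the counts of the lists were 5, 9 and 3, in the same order. In the Notch pathway mam, a coactivator, stood at 4.79 times and kuz, a protease that cuts the receptor, at 3.90, with the ligand genes Ser and Dl at 1.05 and 0.282 times. Its target genes of the Enhancer of split complex were lower still, at 0.574 (HLHmbeta), 0.110 (HLHm7) and 0.046 times (malpha). In the Wnt and Hedgehog pathways arm led at 17.7 times, ahead of ci, the Hedgehog effector, at 6.23, nkd at 5.22 and sgg, the GSK3 kinase, at 4.62. The Wnt receptors ranked fz at 4.48, fz2 at 1.78, fz4 at 1.29 and fz3 at 0.071 times. In the TGF-beta pathway the receptor genes babo (4.05 times), sax (3.57) and tkv (2.76) led and the ligand dpp (0.018) and the inhibitor sog (0.015) were at the bottom.

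Receptor tyrosine kinase genes had a median of 1.0 times, with 6 high (11 by signal) and 5 low of 31. The EGF ligand gene spi stood at 12.1 times and the feedback inhibitor genes kek1 and sty at 11.9 and 6.85 times, with Pvr, the PDGF and VEGF receptor relative, at 5.10. The FGF ligands bnl and pyr stood at 0.015 and 0.039 times. In the JAK/STAT pathway 1 of 9 was high (11.1%) and 3 were low (33.3%). The kinase hop stood at 5.01 times, Stat92E at 3.81 and the receptor dome at 1.68, against 0.040 for the ligand gene upd2, 0.035 for upd3 and 0.0078 for chinmo. In the Hippo pathway 1 of 13 was high (7.69%, 5 by signal). The unconventional myosin gene d (dachs) stood at 21.4 times, th (Diap1), an inhibitor of cell death, at 3.55 and yki, the effector, at 0.996. The protocadherin receptor gene ft stood at 0.134 times. Innate immunity genes had a median of 0.57 times and 1 of 20 high (5%), with median percentiles of 30.8 by level, 41.0 per kb of exons and 47.3 by signal. The high one was the caspase gene Dredd at 3.89 times, just past the limit, and the peptidoglycan recognition gene PGRP-SA was lowest at 0.0037 times.

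Ecdysone response genes had 5 of 14 high (8 by signal): Eip63E at 6.92 times, br at 5.86, the receptor EcR at 5.79, its partner usp at 4.74 and ImpL2, an insulin-binding protein, at 4.32. The models of br and usp are wholly overlapped. Eip75B stood at 0.181 times and ImpE1 at 0.0042 times. Among immediate early and stress factors, with 4 of 14 high (8 by signal), Xbp1, of the unfolded protein response, led at 9.41 times, with dm (Myc, wholly overlapped) at 6.37, kay (Fos) at 5.46 and luna at 4.58, while cbt and Max stood at 0.222 and 0.219 times.

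**Figure D4:**
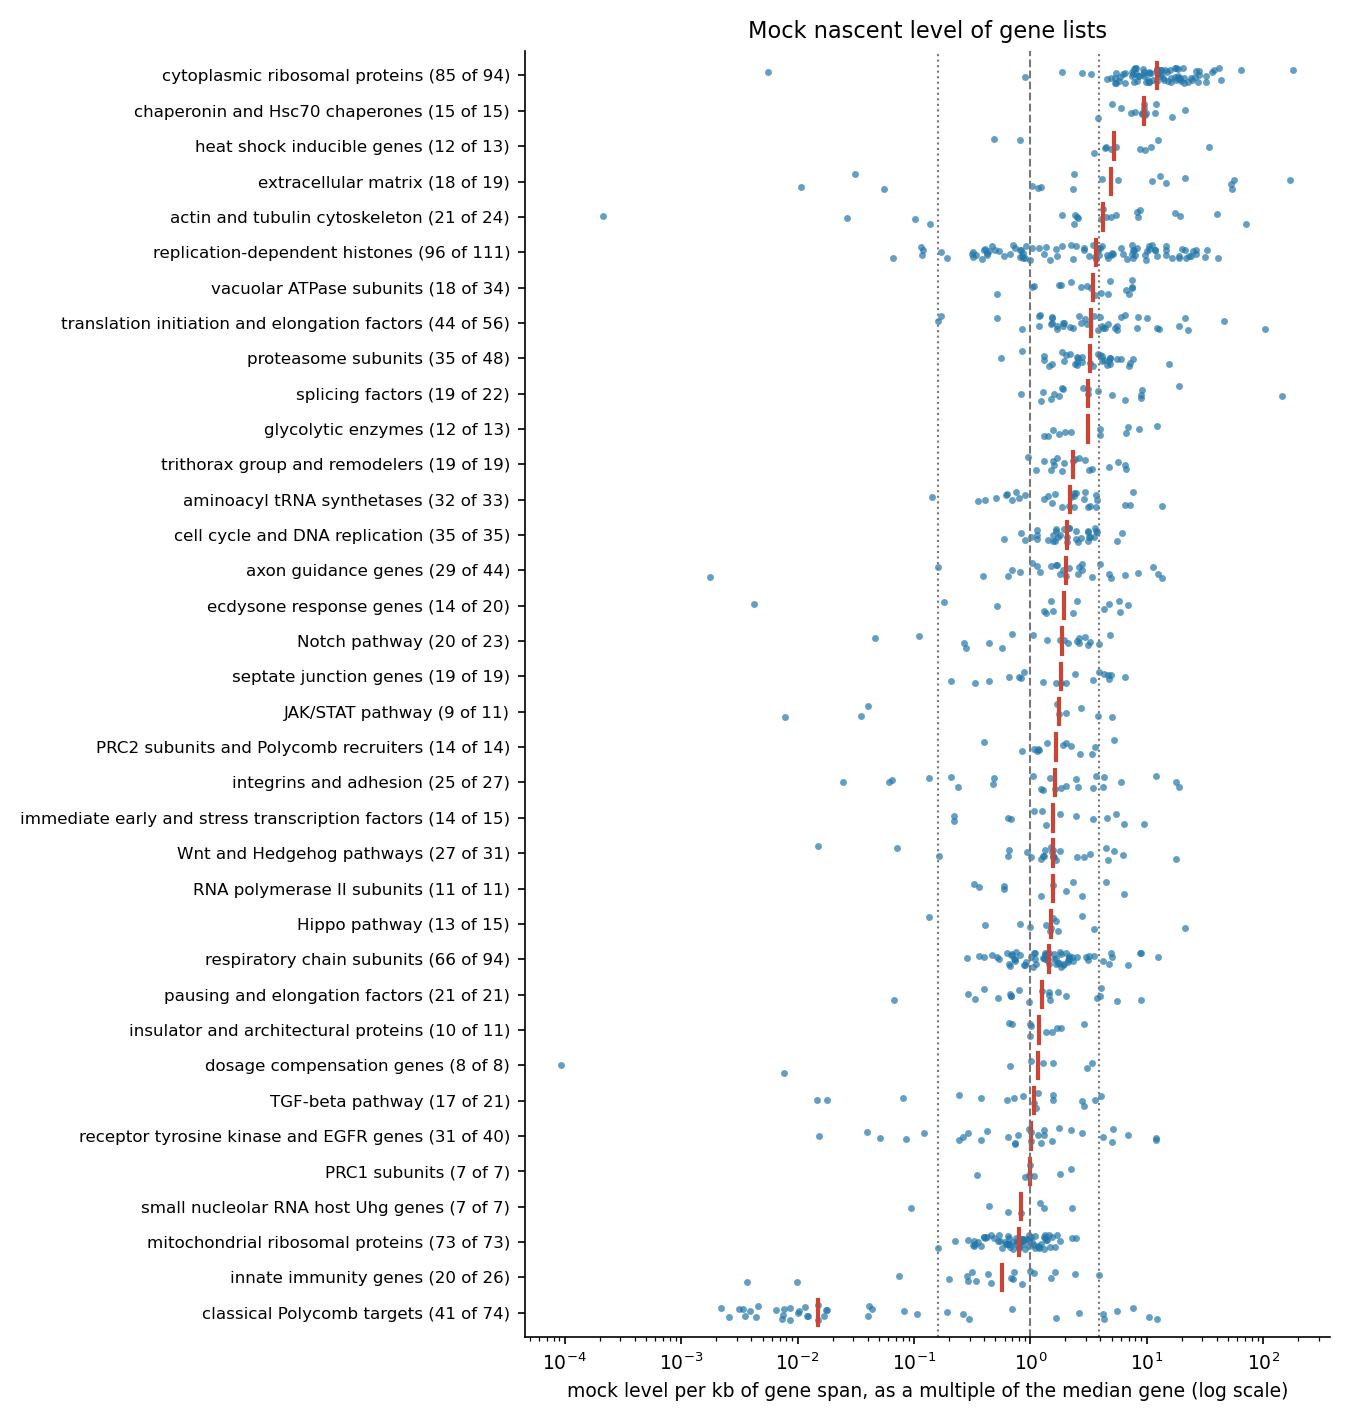
Each point is a gene, plotted by its mock level per kb as a multiple of the median gene (log scale), in 1 row per gene list ordered by median (red bar), with the number of members that have a level out of those listed; the dashed line is the median gene and the dotted lines bound the highest and lowest 10%. Cytoplasmic ribosomal proteins are at the top with a median of 12.4 and classical Polycomb targets at the bottom with a median of 0.015.

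At the foot of the column 10 genes shared the lowest value, a signal of 0.80, so it acts as a floor, of unstated origin. They were roX1, Act57B, btn, tal-1A and 6 CG-numbered genes (CG14104, CG31855, CG33655, CG5773, CG8369 and CG9686). The dosage compensation RNA genes roX1 and roX2, whose RNAs coat the male X chromosome, had signals of 0.80 and 16.2, and both were low by level. The protein genes of the same complex were not low by level: mle stood at 3.09 times the median gene, msl-1 at 1.57, msl-2 at 1.30, mof at 1.01 and msl-3 at 0.668. Just above the floor came the peptidoglycan recognition gene PGRP-SC2 (3.28), CG9691 (3.49), the serpin gene nec (3.56), PGRP-SA (6.57), RpS19b (7.02), the forkhead gene fd64A (9.26) and btd (11.7).

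Families with narrow use in the animal were mostly without a row. The table held 7349 protein-coding genes, 52.5% of the 13986 in the annotation, and what earned a gene its row is not stated, so a missing row is not read as silence. Of 124 cuticle protein genes 1 had a row, Cpr51A, at 0.011 times the median gene. Of 237 sensory receptor and odorant-binding genes 12 had a row, and of 3 high ones Ir40a stood at 7.5 times, whereas Ir62a (7.03) and Gr94a (4.10) lie wholly within other models. Cytochrome P450 genes had rows for 26 of 87, with a median of 0.41 times and 3 high, namely Cyp6a20 at 7.07, Cyp6a17 at 5.51 and Cyp1 at 4.68 times. Glutathione transferases had rows for 23 of 35, led by GstD3 at 11.1 times, and serpins for 8 of 27, with none high. Genes listed under a CG number, 3437 rows, stood at a median of 0.78 times, with 145 of 3394 high (4.27%). Some of these now have names, as CG3523 (FASN1) and CG13900 (Sf3b3) do. CR-numbered non-coding genes stood at 0.53 times, with 12 of 105 high (11.4%), or 6 high without genes overlapped by 50% or more.

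The chromosome arms differed little. The median level was 0.92 times the median gene on X (1309 genes), 1.14 on 2L, 1.03 on 2R, 0.97 on 3L, 0.97 on 3R and 1.20 on the small chromosome 4 (58 genes). The share of high genes was 8.25% on X and 13.9% on 2L, or 11.6% on 2L without the histone array. The median level of X-linked genes minus that of the large autosome arms was -0.15 on the log2 scale, and with the signal not divided by span it was 0.12. On chromosome 4 the highest levels were those of RpS3A at 20.6 times, ci at 6.23 and gw at 5.0, the last a gene of microRNA silencing.

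Levels of long genes reached both ends of the range. The 197 genes over 50 kb held 29.4% of the signal, and of these 17.3% were high and 21.3% low, so both extremes were more common there than the 10.0% of all genes. Genes of 1 to 2 kb, 1964 in number, had 7.48% high and 6.77% low. Genes of up to 0.5 kb had a median of 3.65 times with 46.1% high. That group holds 38 histone genes of its 102, and without them the median was 1.46 times with 26.6% high. Genes with more than 10 exon blocks had 14.6% high and 14.2% low.

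Genes with a small nucleolar RNA (snoRNA, a guide of RNA modification) inside their model stood high. The 90 genes with a snoRNA model inside had a median of 6.08 times the median gene and 56 of them (62.2%) were high. Whether the signal of a host counts the snoRNA inside it was not tested. Ribosomal protein genes account for 29 of the 90, and all 29 were high, with a median of 12.6 times. The ribosomal protein genes without a snoRNA model had nearly the same median, 12.3 times. The 61 other hosts had a median of 3.18 times with 44.3% high, against 0.98 times and 8.75% for the other genes without a snoRNA model. The non-coding Uhg host genes, whose product is mainly the snoRNA, had a median of 0.83 times and 0 of 7 high. Their median percentile was 42.6 by level but 75.9 per kb of exons, and levels ran from 2.29 times (Uhg7) down to 0.094 times (Uhg3). Genes with a microRNA model inside, 103 in number, had a median of 1.60 times with 21 high. The non-coding gene CR43334, which holds bantam, a growth-promoting microRNA, stood at 9.20 times with a signal of 222766, and CR43459, which holds mir-277 and mir-34, at 9.99 times.

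**Figure D5:**
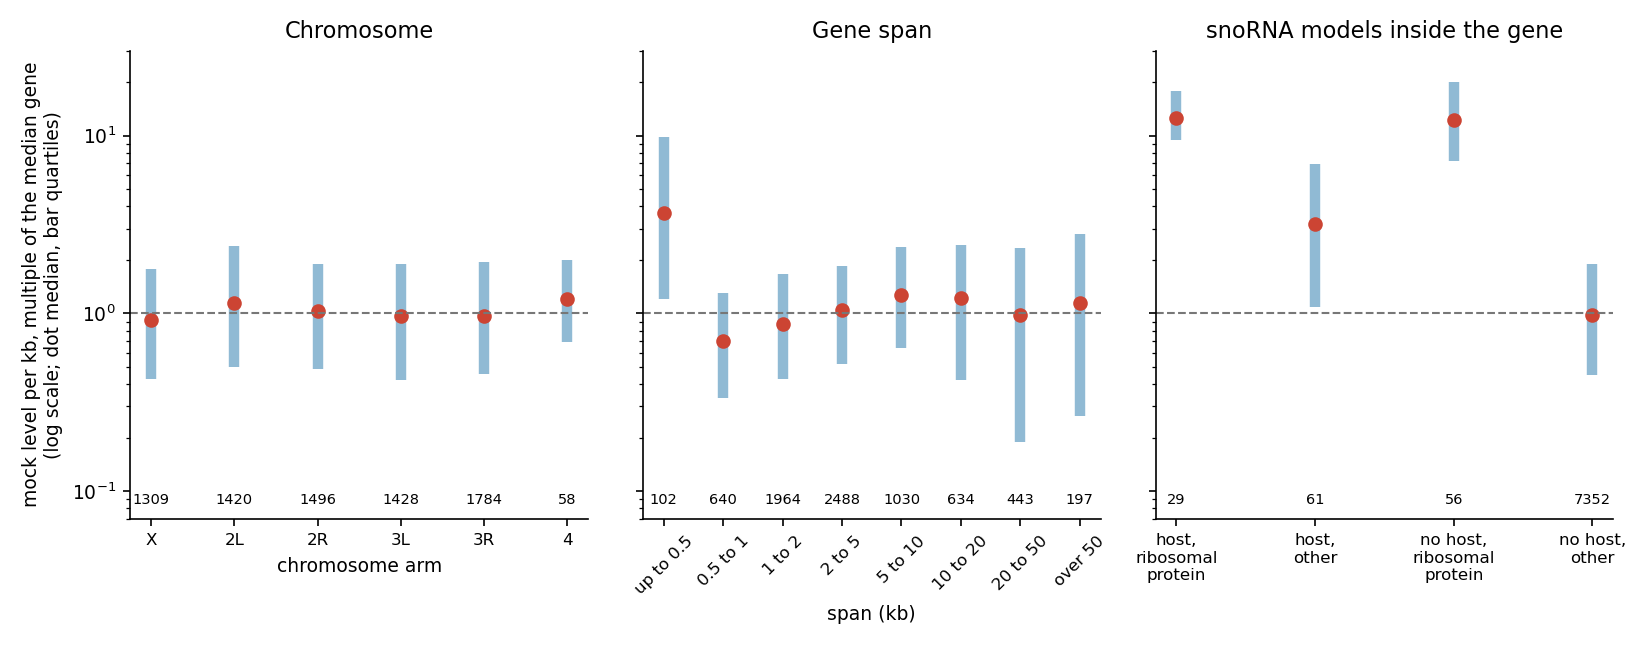
Dots are medians and bars quartiles of the mock level per kb, as a multiple of the median gene (log scale), by chromosome arm, by gene span (kb) and by whether a snoRNA model lies inside the gene; numbers of genes stand along the bottom. Arms lie between 0.92 and 1.20, and both classes of ribosomal protein genes lie at 12.3 and 12.6.

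The sets of highest genes overlapped with those of the other libraries of the series. Of the 25 genes of highest mock signal, 19 were among the 25 highest in the authors' mean of the Sce RNAi libraries and 15 in that of the Ph RNAi libraries. Of the 100 highest, 88 and 73 were among the 100 highest of the same columns. These are treated cells and no replicate of the mock group, so the overlap is no measure of error.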

How the data were processed

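Nascent RNA was sequenced on an Ion Torrent system from cells given a mock treatment or RNAi against Ph or Sce, per the labels' protocols. The deposited signal per gene is, per the file headers, the authors' average over each group's replicates. Its normalization is not stated, and the nascent columns sum to 191793598, 192278102 and 192180746. SAMtools and bedtools were used, per the submitters' processing notes. Not given in the sources used here are the aligner, genome build, annotation and strand handling. The depth per library is unknown, so no interval was computed. Of the table's columns, 4 of total RNA means match no sample of the series and were not used, nor were 15 columns of the authors' comparisons.

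Symbols were matched to BDGP6.54 gene models (Ensembl release 115): 5725 by current name, 1761 by synonym and 12 by hand. Signal was divided by gene span in kb, with no pseudocount and no filter. Calculations used Python 3.11.15, pandas 2.3.3 and numpy 2.4.6, and the ranking steps were tested on simulated data. Genes and the 51 gene lists were chosen with earlier results of these data known. Genes were drawn for naming by rule. The rule took the 25 highest signals, the 25 highest levels, the 15 lowest signals above the floor and the 3 highest levels on each chromosome arm. It also took the 4 highest and 2 lowest levels in each list and all cell type markers. Not every gene so drawn is named in the text. Other examples (paralogs, Hox genes, dosage compensation genes, other list members) were chosen after their values were seen, and the serpin list was narrowed then. Core promoter motifs were not analysed here. Alternatives were the undivided signal, level per kb of exons, a filter at the 10th percentile (557), removal of overlapped or short genes, a pseudocount, and other libraries.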

Additional observations from a re-analysis of the deposited data

How the results depend on the processing

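The scale of the level decided more than any filter. With the deposited signal not divided by length, high ribosomal protein genes numbered 22 in place of 80 and their median percentile was 84.4 in place of 98.1. The mitochondrial ribosomal protein median fell to percentile 18.2 from 41.4, and high chaperone genes numbered 7 in place of 14. On that scale axon guidance genes had 18 high and a median percentile of 96.3, against 8 and 75.6. Neuronal markers had 2 high, 1 low and a median percentile of 65.9, against 1, 2 and 28.5, and glial markers 1 high, 1 low and 61.2, against 2, 3 and 29.3. X-linked genes stood 0.12 above autosomal ones (log2) in place of -0.15, so the sign turned. Per kb of exons gave 17 high axon guidance genes with a median percentile of 91.9, 1 high mitochondrial ribosomal protein gene, and 1 high glial marker with a median percentile of 48.3. With genes above the 10th percentile of signal alone, low Polycomb targets numbered 9 in place of 29, since the filter removes low genes. Without genes overlapped by 50% or more, 1 glial marker was high. The shares of signal in the 10, 100 and 1000 highest genes and the membership of the 100 highest stayed within 1.5 times under every alternative run for them. Of 84 values for the other lists, 53 moved with the undivided signal and 36 per kb of exons; of 42, 4 moved under the low-value filter and 4 without overlapped genes. No paired analysis was possible because the table holds group means with no value per replicate, and leaving out each replicate could not be run for the same reason. Depth per library is unknown, so signals near the lowest value have no stated precision.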
